A study of Mus musculus with 24 samples.

Results

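The SoxF factors and the flow-responsive genes of liver endothelial cells (ECs) were followed as 9 named genes among the 48820 entries of each count table: *Sox7*, *Sox17* and *Sox18*, the Krüppel-like factors *Klf2*, *Klf4* and *Klf6*, the effectors *Nos3* and *Edn1*, and the channel *Piezo1*. The members were listed by symbol, and each symbol was present in all 4 tables. The change in ECs was set beside the change in whole liver and in liver macrophages. The 24 bulk RNA-seq libraries formed 8 groups of 3 mice, C57BL/6 in the labels and C57BL/6J in the study's methods. In *Gdf2/Bmp10* HSC-KO mice, which are fl/fl for *Gdf2* and for *Bmp10* and carry LratCre, Cre driven by *Lrat* deleted *Gdf2* and *Bmp10*, which encode the BMP9 and BMP10 ligands, in hepatic stellate cells (HSCs). Their controls are called control mice or WT in the labels, which do not give their alleles. From these mice, ECs sorted as CD45-CD31+ cells and macrophages sorted as CD45+Ly6C-F4/80+CD64+ cells were collected at 8 to 10 weeks of age, and whole livers at 12 weeks. In *Smad4* fl/fl *Vav1*Cre mice, 8 to 10 weeks old, *Smad4* was deleted in all hematopoietic cells, and their macrophages, sorted through the same gate, were compared with those of *Smad4* fl/fl controls. The ECs and macrophages were freed by collagenase digestion of perfused livers, whereas the whole livers were not digested. Going by the mouse numbers in the labels, ECs and macrophages were both sequenced from 3 of the mice.

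SoxF factors are HMG-box transcription factors of vascular and lymphatic endothelium, where they act redundantly in vessel formation and arterial specification. KLF2 and KLF4 are zinc-finger factors that laminar shear stress induces through the MEKK3-MEK5-ERK5-MEF2 cascade. They raise transcription of anticoagulant and vasodilator genes, among them *Nos3*, the endothelial nitric oxide synthase, and restrain *Edn1*, the precursor of the vasoconstrictor endothelin-1. KLF6 is a related factor that responds to injury, and PIEZO1 is a mechanically gated cation channel with which ECs sense flow. In the liver, shear stress on sinusoidal ECs is known to raise KLF2 and NO production.

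The promoters of *Klf2*, *Klf4*, *Klf6* and *Piezo1* are shown because the first is the textbook flow-induced promoter and the other 3 genes had the higher estimates in ECs. They were taken from the RefSeq promoter table (GRCm38.p6), which matched 5 of the 9 members, *Edn1* being the other. Each run gives the 250 bases before the RefSeq start, 5′ to 3′ on the gene's strand: *Klf2* at chr8:72318812-72319061 on the + strand, *Klf4* at chr4:55532476-55532725 on the - strand, *Klf6* at chr13:5861239-5861488 on the + strand and *Piezo1* at chr8:122551330-122551579 on the - strand. Capitals mark matches of the MEF2 box and, on either strand, of the KLF box CCACCC.
Klf2: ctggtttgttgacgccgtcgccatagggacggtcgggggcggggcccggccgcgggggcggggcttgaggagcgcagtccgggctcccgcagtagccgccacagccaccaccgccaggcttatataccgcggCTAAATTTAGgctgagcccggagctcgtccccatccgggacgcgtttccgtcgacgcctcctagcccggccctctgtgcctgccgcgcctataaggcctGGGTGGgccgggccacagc
Klf4: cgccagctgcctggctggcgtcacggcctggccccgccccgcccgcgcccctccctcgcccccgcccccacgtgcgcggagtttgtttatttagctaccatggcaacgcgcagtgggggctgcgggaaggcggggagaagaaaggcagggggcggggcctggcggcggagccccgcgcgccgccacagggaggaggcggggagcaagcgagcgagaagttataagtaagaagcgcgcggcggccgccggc
Klf6: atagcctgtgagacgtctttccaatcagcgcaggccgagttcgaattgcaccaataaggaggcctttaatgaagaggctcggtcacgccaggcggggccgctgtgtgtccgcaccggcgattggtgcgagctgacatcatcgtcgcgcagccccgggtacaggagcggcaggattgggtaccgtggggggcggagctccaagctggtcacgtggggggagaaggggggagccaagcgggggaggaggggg
Piezo1: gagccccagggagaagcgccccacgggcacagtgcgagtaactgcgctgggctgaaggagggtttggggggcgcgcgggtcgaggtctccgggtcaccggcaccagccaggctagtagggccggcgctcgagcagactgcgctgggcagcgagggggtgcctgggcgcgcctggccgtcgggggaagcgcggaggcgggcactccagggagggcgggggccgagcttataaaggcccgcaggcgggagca
The *Klf2* promoter held 1 MEF2 box at position -118 and 1 KLF box at position -19, counted from the RefSeq start. A MEF2 box was present in 2.92% of 32851 promoter windows of this length, and the KLF box in 28.1%. The MEF2 search was added after the sequences had been viewed. On both strands, the SOX motif ACAAAG was in 16.5% of windows and the SOX motif ACAATG in 10.7%. The SMAD motif GGCGCC was in 9.59% and the SMAD motif CAGACA in 17.1% of windows. None of these letters was in the windows of the 5 matched members, and the KLF and MEF2 boxes were not in those of *Klf4*, *Klf6*, *Edn1* and *Piezo1*. The GENCODE start of *Klf2* lies inside the printed window, so that its last 29 bases are transcribed in that annotation, as are the last 7 of *Klf6*.

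In GENCODE vM21 (GRCm38), *Sox7* lies on chr14:63943673-63950732, *Sox17* on chr1:4490931-4497354, *Sox18* on chr2:181669836-181671640, *Klf2* on chr8:72319033-72321656, *Klf4* on chr4:55527143-55532466, *Klf6* on chr13:5861482-5870394, *Nos3* on chr5:24364810-24384474, *Edn1* on chr13:42301476-42307990 and *Piezo1* on chr8:122481698-122551329. *Piezo1* shares up to 2441 exon bases with *Ctu2*, a tRNA-thiolation gene on the opposite strand. Exon bases are also shared, on the opposite strand, by *Nos3* with *Atg9b* and *Gm15587*, by *Sox17* with *Gm37587* and by *Edn1* with *Gm47118*. The sources used here do not state whether the counting used strand, so reads of these pairs cannot be told apart with certainty.

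The libraries held 60911527 to 110879155 counts each. In ECs, all 12 pan-endothelial markers passed the filter on low counts and their summed level was 17830 to 18270 CPM (counts per sequencing depth, with TMM factors within each table) in controls and 16100 to 17540 in the HSC-KO group. Opposite changes entered this sum. *Emcn* and *Pecam1* were higher and *Ptprb*, *Eng*, *Tek* and *Kdr* lower at an edgeR adjusted p below 0.05. These were 2 and 4 of 12 markers, beside 10.3% and 9.77% of all genes tested. *Emcn* went from a mean of 239.3 to 2803 CPM and *Ptprb* from 5045 to 2581 CPM. The macrophage markers summed to 270.5 to 366.2 and 67.3 to 109.3 CPM. *Mertk* made up most of that sum, with means of 254.9 and 80.9 CPM, and the other 9 macrophage markers, summed after these values were seen, were at 54.8 to 70.5 and 5.78 to 8.58 CPM. *Dnase1l3* alone took 14 to 20.4% of the counts of control ECs. The deleted genes followed the labels: *Gdf2* had 2036, 720 and 2030 counts in control livers and 287, 178 and 189 in HSC-KO livers (edgeR adjusted p = 0.0135), *Bmp10* 362, 209 and 180 against 7, 22 and 8 (adjusted p = 0.00657), and *Smad4* 3894, 3185 and 4416 against 1669, 1461 and 1289 in *Smad4*-deleted macrophages (adjusted p = 0.00234). *Xist* had 1206 counts or more in some libraries and at most 12 in others of each *Gdf2/Bmp10* group except control livers, where all 3 libraries had it.

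In ECs, the question was whether loss of HSC-derived GDF2 and BMP10 moved these genes. None of the 9 members was a differentially expressed gene (DEG, adjusted p below 0.05 and a log2 fold change above 1 in size) by edgeR's quasi-likelihood test, beside 13.7% of the 16053 genes tested. At an unadjusted p below 0.05 there were 3 of 9 members, beside 32.6% of all genes tested. DESeq2 called 0 members as DEGs, beside 2705 of 23357 genes. At an adjusted p below 0.05 with any size of change, *Sox7* was lower and *Piezo1* higher, 2 of 9 members beside 20.1% of all genes tested. The median log2 fold change was 0.14 over the members and 0.0048 over all genes tested. The 3 libraries of the groups did not overlap for these 2 members, beside 40.4% of all genes. The values of the 6 libraries are shown in the plot of EC levels by gene.

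*Sox7*, a SoxF factor of early vascular development, was at 98.5, 79.9 and 86.9 CPM in control replicates 1 to 3 and at 71.6, 55.5 and 60.8 CPM in HSC-KO replicates 1 to 3. Every HSC-KO library lay below every control library. The mean fell from 88.4 ± 9.43 to 62.6 ± 8.16 CPM (SD, n = 3), a log2 fold change of -0.50 (SE 0.14, edgeR adjusted p = 0.0478). The call was lost when any library other than HSC-KO replicate 1 was left out, at adjusted p values from 0.0625 without control replicate 2 to 0.151 without control replicate 1. It was also lost with library size alone as the scaling (-0.21, adjusted p = 0.401), with all genes of at least 1 count (adjusted p = 0.0757) and under glmTreat.

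*Sox17*, a regulator of arterial endothelium, was at 15.7, 9.88 and 12.2 CPM in control ECs and at 11.6, 8.21 and 13.3 CPM in HSC-KO ECs. The groups overlapped, and the log2 fold change was -0.19 (95% interval -0.75 to 0.38, edgeR adjusted p = 0.654). *Sox18*, which acts with PROX1 in lymphatic specification, was at 23.8, 32.9 and 11.03 CPM in control ECs and at 30.3, 15.5 and 28.9 CPM in HSC-KO ECs. The spread within each group was as large as the difference between them, and the log2 fold change was 0.14 (95% interval -0.80 to 1.09, adjusted p = 0.851). Of the SoxF genes, 1 fell and 2 did not pass the test.

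**Figure D1:**
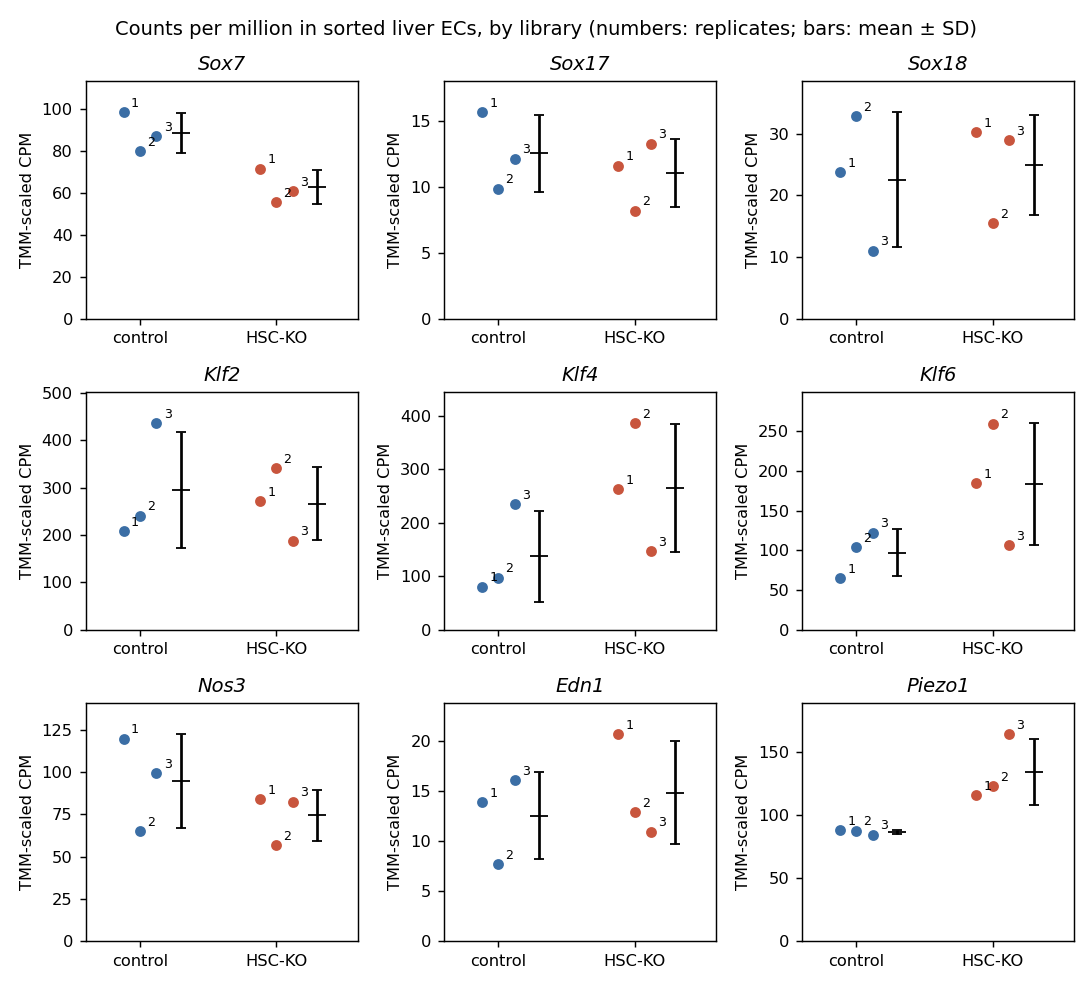
TMM-scaled CPM of the 9 genes in the 6 EC libraries (points, numbered by replicate; blue, control; red, *Gdf2/Bmp10* HSC-KO), with mean and SD as black bars. *Sox7* lies lower and *Piezo1* higher in every HSC-KO library, while the groups of the other 7 genes overlap.

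None of the 3 Krüppel-like factors passed the test in ECs. *Klf2* was at 208.1, 240.6 and 435.7 CPM in control ECs and at 271.1, 340.1 and 187.6 CPM in HSC-KO ECs. Its highest value was control replicate 3 and its lowest HSC-KO replicate 3, with a log2 fold change of -0.15 (SE 0.32; 95% interval -0.90 to 0.61, edgeR adjusted p = 0.803). The sign of this estimate turned when control replicate 3 was left out (0.25), so that no direction was given for it.

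*Klf4* was at 80.4, 97.2 and 234.7 CPM in control ECs and at 263.2, 386.6 and 147.1 CPM in HSC-KO ECs. HSC-KO replicates 1 and 2 lay above all controls, and HSC-KO replicate 3 lay below control replicate 3. The log2 fold change was 0.95 (SE 0.47; 95% interval -0.15 to 2.06, edgeR adjusted p = 0.213), and it passed the test without control replicate 3 (1.58, adjusted p = 0.0497). This was 1 of 14 alternatives, and with each library left out the estimate ranged from 0.58 to 1.58.

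*Klf6* was at 64.9, 103.8 and 122.2 CPM in control ECs and at 184.4, 259.3 and 106.2 CPM in HSC-KO ECs. Here too replicates 1 and 2 of the HSC-KO group were the highest of the 6 and replicate 3 was within the control range. The log2 fold change was 0.92 (SE 0.35; 95% interval 0.11 to 1.73, edgeR adjusted p = 0.110). It passed the test under DESeq2 (0.94, adjusted p = 0.0209), with *Xist* as a covariate (1.22, adjusted p = 0.0124), with library size alone as the scaling (1.21, adjusted p = 0.0262) and without HSC-KO replicate 3 (1.20, adjusted p = 0.0471). These were 4 of 14 alternatives, and with each library left out the estimate ranged from 0.59 to 1.20.

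Immediate-early genes, which cell isolation is known to induce together with *Klf2*, *Klf4* and *Klf6*, were followed as a list of 18. Their summed level was 931.6, 1295 and 1260 CPM in control ECs and 1314, 2532 and 1304 CPM in HSC-KO ECs, so that HSC-KO replicate 2, which had the highest *Klf4* and *Klf6*, also had the highest list level. In whole livers, which were not digested, the sums were 345.5 to 478.2 CPM in controls and 380.8 to 650.5 CPM in HSC-KO mice. Of the 18 genes, 2 were higher in ECs at an adjusted p below 0.05 (*Jun* and *Btg2*, named after their values were seen), beside 10.3% of all genes tested, and none was lower. The part of this list in the *Klf* values was not tested.

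**Figure D2:**
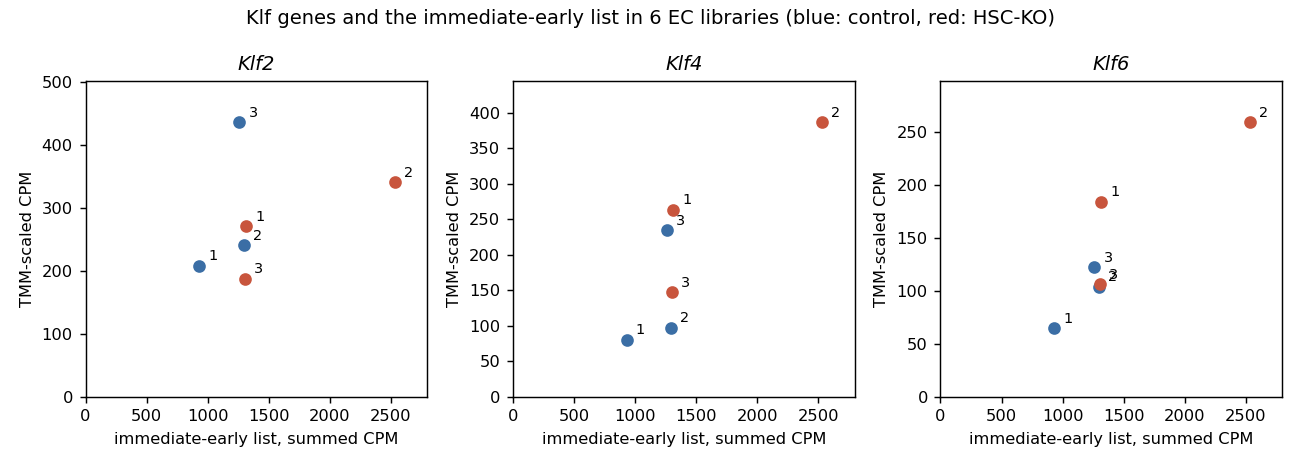
CPM of *Klf2*, *Klf4* and *Klf6* (vertical axes) against the summed CPM of 18 immediate-early genes (horizontal axes) in the 6 EC libraries, numbered by replicate (blue, control; red, HSC-KO). HSC-KO replicate 2 is at 2532 CPM on the list and at the top for *Klf4* and *Klf6*; control replicate 3 is at the top for *Klf2* with a list level of 1260 CPM.

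Neither effector passed the test in ECs. *Nos3* was at 119.9, 65.2 and 99.4 CPM in control ECs and at 84.1, 56.9 and 82.4 CPM in HSC-KO ECs. The groups overlapped through control replicate 2, and the log2 fold change was -0.35 (95% interval -0.93 to 0.23, edgeR adjusted p = 0.387). *Atg9b*, the antisense neighbour, fell from 2.56 to 5.13 CPM in control ECs to 0.94 to 1.74 CPM in HSC-KO ECs (log2 fold change -1.45, adjusted p = 0.0322), and how its reads bear on *Nos3* was not tested. *Edn1* was at 13.9, 7.65 and 16.1 CPM in control ECs and at 20.7, 12.9 and 10.9 CPM in HSC-KO ECs, with a log2 fold change of 0.24 (95% interval -0.53 to 1.01, adjusted p = 0.676). Its sign turned without HSC-KO replicate 1 (-0.08) and without control replicate 2 (-0.016).

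*Piezo1* was the member that rose. It was at 87.8, 87.5 and 84.6 CPM in control ECs and at 115.7, 122.9 and 164.2 CPM in HSC-KO ECs. The controls lay close together and every HSC-KO library lay above them. The mean was 86.6 ± 1.79 CPM in controls and 134.3 ± 26.1 CPM in HSC-KO ECs (SD, n = 3), a log2 fold change of 0.63 (SE 0.16, edgeR adjusted p = 0.0260), or 1.55-fold. The call was lost without control replicate 1, 2 or 3 and without HSC-KO replicate 3, at adjusted p values of 0.0645 to 0.0877, and under glmTreat. *Ctu2*, which shares exon bases with it, was at 36.0, 13.8 and 25.4 CPM in control ECs and at 21.7, 16.0 and 24.4 CPM in HSC-KO ECs, with overlapping groups (log2 fold change -0.27, adjusted p = 0.634).

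**Figure D3:**
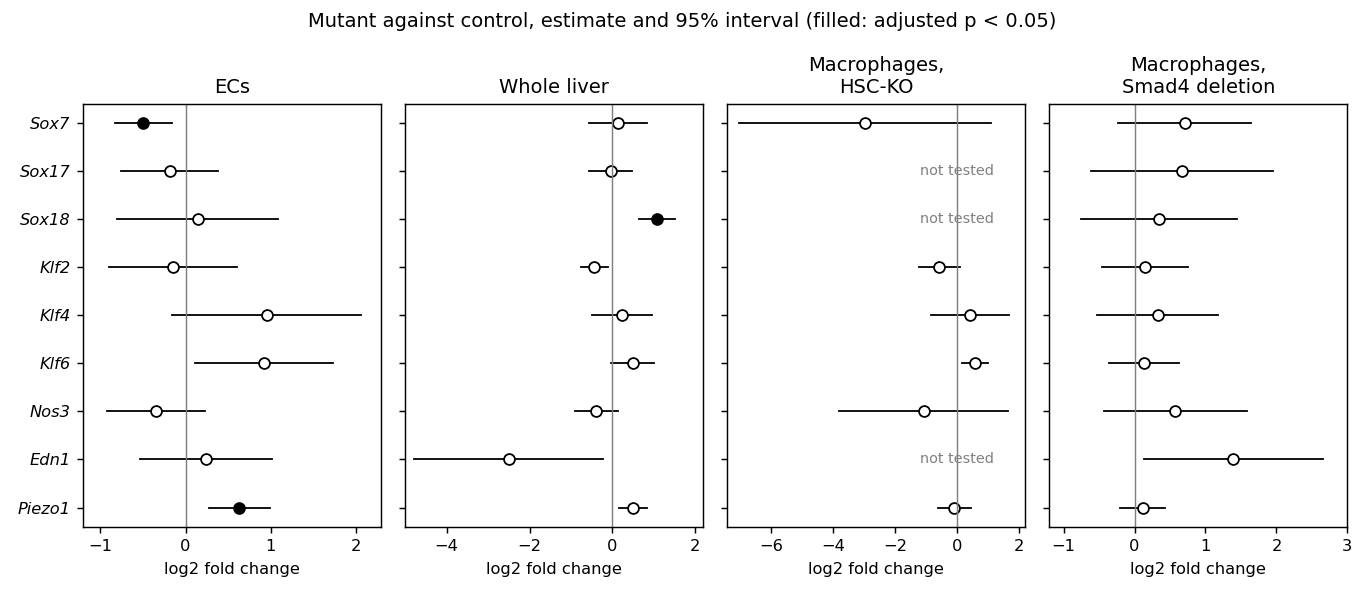
Log2 fold change of each gene, mutant against control, in the 3 sample types of the *Gdf2/Bmp10* line and in *Smad4*-deleted macrophages (points, with 95% intervals as lines; the horizontal scales differ). Filled points, *Sox7* and *Piezo1* in ECs and *Sox18* in whole liver, have an adjusted p below 0.05.

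The pathway genes around the members were followed as 8 lists in ECs, in which 10.3% of all genes tested were higher and 9.77% lower at an adjusted p below 0.05. Among the other members of the Klf family, 4 of 11 tested genes were higher and 1 was lower. *Klf15*, a metabolic regulator, fell from 2.50 to 0.169 CPM (log2 fold change -3.88, SE 0.99, adjusted p = 0.0306). *Klf13* rose from 1144 to 2344 CPM (1.03, SE 0.27, adjusted p = 0.0311), and *Klf8* rose from 0.0285 to 0.647 CPM (4.35, SE 1.21, adjusted p = 0.0411), with 0 counts in 2 libraries. The median over the list was 0.19.

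In the nitric oxide list, 5 of 13 tested genes were higher and 1 was lower, with a median of -0.26. *Nos2*, the inducible NO synthase, rose from 0.367 ± 0.0461 to 23.6 ± 2.47 CPM (± SD, n = 3), and its log2 fold change was 6.01 (SE 0.20, adjusted p = 1.12e-05). *Cav1*, whose product binds and restrains eNOS in caveolae, rose from 40.3 ± 2.69 to 431 ± 86.5 CPM (3.42, SE 0.19, adjusted p = 7.02e-05). *Slc7a1*, an arginine transporter, rose from 4.15 to 16.4 CPM (1.98, SE 0.28, adjusted p = 0.00278). These changes stood beside a *Nos3* estimate whose interval included 0.

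The endothelin list gave 2 higher genes of 4 tested and none lower, with a median of 0.36. *Ednrb*, the endothelin receptor of ECs, rose from 232.8 ± 83.4 to 992 ± 456 CPM (log2 fold change 2.09, SE 0.39, adjusted p = 0.00842). *Ece1*, which cleaves big endothelin to its active form, rose from 2117 ± 347 to 3528 ± 450 CPM (0.74, SE 0.21, adjusted p = 0.0470). *Ednra*, the receptor of smooth muscle, was at 0.183 and 0.152 CPM (adjusted p = 0.861).

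Of 15 flow-sensing genes, 5 were higher and 3 lower, with a median of 0.20. *Piezo2*, the paralog of *Piezo1*, rose from 2.12 ± 1.19 to 66.8 ± 13.6 CPM (log2 fold change 4.97, SE 0.42, adjusted p = 0.000287). *P2rx4*, an ATP-gated channel of flow sensing, fell from 183.5 to 34.9 CPM (-2.39, SE 0.29, adjusted p = 0.00145), and the integrin gene *Itgb3* fell from 22.0 to 1.59 CPM (-3.79, SE 0.40, adjusted p = 0.000797).

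Of 12 genes of the cascade upstream of *Klf2* and *Klf4*, 2 were higher and 3 lower, with a median of -0.049. *Mef2c*, whose product binds MEF2 boxes such as that printed in the *Klf2* promoter, rose from 128.8 ± 25.7 to 282.5 ± 68.5 CPM (log2 fold change 1.13, SE 0.23, adjusted p = 0.0121). *Heg1*, a receptor of the CCM complex, rose by 0.67 (SE 0.14, adjusted p = 0.0159). *Map3k2*, which encodes MEKK2, fell by 0.68 on the log2 scale (SE 0.16, adjusted p = 0.0242). The other lower genes were *Map3k3*, which encodes MEKK3 (-0.52, adjusted p = 0.0469), and *Map2k5*, which encodes MEK5 (-0.56, adjusted p = 0.0462). *Mapk7*, which encodes ERK5, did not pass the test (-0.28, adjusted p = 0.281).

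Of 9 tested genes known as KLF2 or KLF4 targets, 3 were higher and 2 lower, with a median of 0.39. *Thbd*, the anticoagulant thrombomodulin, rose from 1044 ± 338 to 2254 ± 235 CPM (log2 fold change 1.11, SE 0.25, adjusted p = 0.0199). *Aqp1*, a water channel, fell from 11730 ± 1364 to 1500 ± 1505 CPM (-2.97, SE 0.68, adjusted p = 0.0196). *Timp3*, an inhibitor of metalloproteases, rose from 1051 to 1776 CPM (0.76, SE 0.18, adjusted p = 0.0210). The targets thus moved in both directions.

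In the list of SoxF partners and targets, 1 of 14 tested genes was higher and 3 were lower, with a median of -0.085. The higher gene was *Mef2c* again, a partner of SOX18. *Vcam1*, a leukocyte adhesion molecule, fell from 101.6 ± 22.4 to 26.7 ± 4.54 CPM (log2 fold change -1.93, SE 0.20, adjusted p = 0.00075), and *Nr2f2*, the venous factor COUP-TFII, fell from 895.3 ± 64.2 to 330.1 ± 45.6 CPM (-1.44, SE 0.17, adjusted p = 0.00114).

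In the list of genes that low or disturbed flow is known to raise, 2 of 8 tested genes were higher and 3 were lower, with a median of -0.70. *Pdgfb*, a pericyte-recruiting ligand, rose from 10.4 ± 5.13 to 178.8 ± 27.2 CPM (log2 fold change 4.11, SE 0.36, adjusted p = 0.000319). *Icam1*, a leukocyte adhesion molecule, fell from 113.6 ± 11.4 to 70.6 ± 8.80 CPM (-0.69, SE 0.14, adjusted p = 0.0130), and *Vcam1*, given above, is also on this list.

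**Figure D4:**
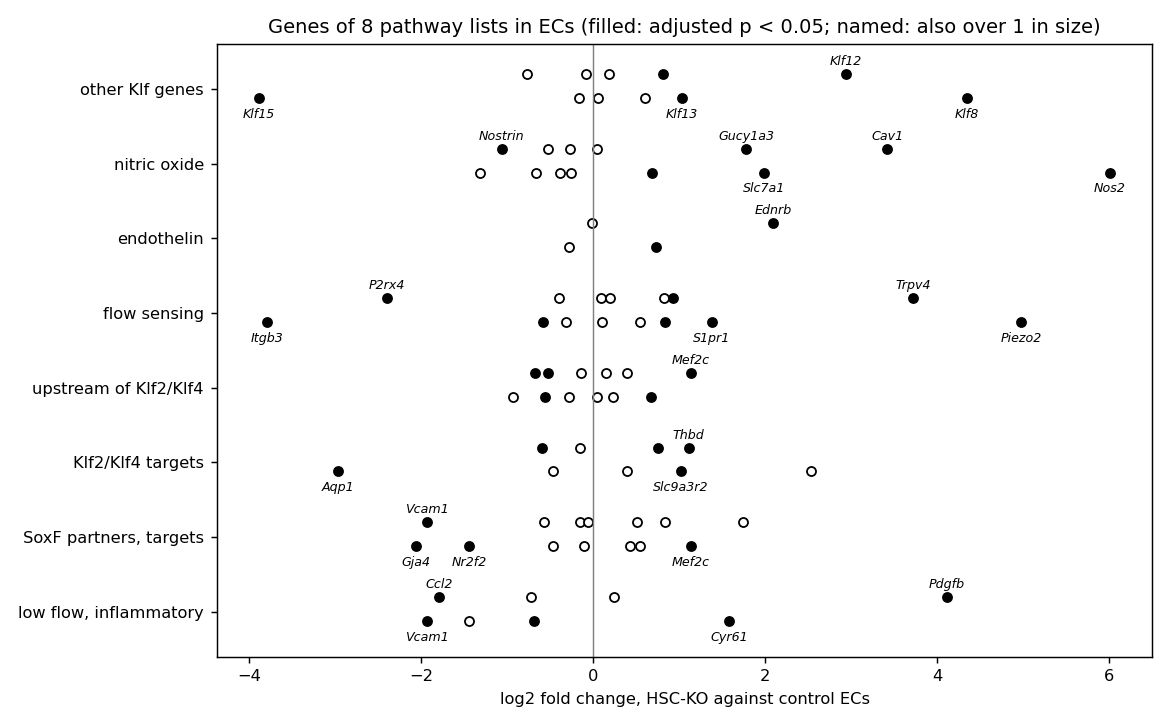
Log2 fold change in ECs of each tested gene of 8 pathway lists (points; filled, adjusted p below 0.05). Genes that also changed by more than 1 are named; filled points lie on both sides of 0 in every list except the endothelin list, where both filled points are positive.

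In whole liver, *Sox18* was the 1 member called a DEG, beside 2.48% of 17118 genes tested (2.83% at an adjusted p below 0.05 with any size of change). It was at 7.68, 8.46 and 7.53 CPM in control livers and at 12.8, 17.0 and 20.1 CPM in HSC-KO livers. Each HSC-KO liver lay above every control. The mean rose from 7.89 ± 0.50 to 16.7 ± 3.65 CPM (SD, n = 3), 2.11-fold (log2 fold change 1.08, SE 0.18, edgeR adjusted p = 0.0259). The call was lost when any library other than HSC-KO replicate 1 was left out (adjusted p 0.0518 to 0.116), with the replicate number as a block (adjusted p = 0.0569) and under glmTreat. With library size alone (0.97, adjusted p = 0.0437) and with *Xist* as a covariate (0.92, adjusted p = 0.0433) the adjusted p passed, but the log2 fold change was below the DEG threshold. In bulk tissue, more cells of a type and more RNA per cell cannot be told apart. In the same livers, 4 of 12 pan-endothelial markers were higher and 3 lower at an adjusted p below 0.05. *Emcn* rose by 3.24, *Pecam1* by 1.00 (adjusted p = 0.0157), *Robo4* by 0.85 and *Tie1* by 0.76 on the log2 scale, whereas *Ptprb* was at -1.14, *Tek* at -0.86 and *Eng* at -0.67. Their sum, which these opposite changes enter, was 450.3 to 544.9 CPM in controls and 473.1 to 547.3 CPM in HSC-KO mice. Markers of other cells moved too. Of 10 macrophage markers, 6 were lower, with *Csf1r* at -2.17 on the log2 scale, and their sum was 356.4 to 558.1 against 104.6 to 166.2 CPM. Of 9 stellate markers, 1 was higher (*Dcn*, 0.90, adjusted p = 0.0314), and their sum was 240.3 to 349 against 499.8 to 534 CPM. Of 4 lymphatic markers, *Ccl21a* was higher (2.01, adjusted p = 0.0264), at means of 0.400 and 1.62 CPM, and *Flt4* lower (-1.76, adjusted p = 0.00657). The part of these cell types in the *Sox18* change was not tested.

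None of the other 8 members passed the test in whole liver. At an unadjusted p below 0.05 there were 4 of 9 members, *Sox18*, *Klf2*, *Edn1* and *Piezo1*, beside 12.9% of all genes tested. The groups did not overlap for *Sox18* and 3 of these 8, 4 of 9 members beside 19.7% of all genes tested. *Piezo1* was at 11.6, 11.5 and 13.0 CPM in control livers and at 17.1, 19.3 and 14.7 CPM in HSC-KO livers, with a log2 fold change of 0.50 (SE 0.14, edgeR adjusted p = 0.160). *Klf2* was at 16.5, 14.6 and 16.9 CPM in control livers and at 10.51, 13.2 and 11.9 CPM in HSC-KO livers (-0.43, SE 0.14, adjusted p = 0.207). *Edn1*, barely detected in this tissue, had 47, 51 and 60 counts in control livers and 12, 12 and 0 in HSC-KO livers; its log2 fold change of -2.50 had a 95% interval of -4.78 to -0.22 (adjusted p = 0.327).

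*Sox7* was at 2.01 to 3.34 CPM in control livers and at 2.08 to 3.13 CPM in HSC-KO livers, and *Sox17* at 3.28 to 3.85 and 2.90 to 4.23 CPM. *Klf4* was at 2.22 to 4.50 and 3.71 to 5.24 CPM, *Klf6* at 11.3 to 11.6 and 10.7 to 19.1 CPM, and *Nos3* at 5.53 to 9.04 and 4.71 to 6.08 CPM. All 5 had overlapping groups and edgeR adjusted p values of 0.417 to 0.976. *Klf6* passed the test without HSC-KO replicate 3 (log2 fold change 0.71, adjusted p = 0.0427) and with *Xist* as a covariate (0.72, adjusted p = 0.0382).

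In macrophages of *Gdf2/Bmp10* HSC-KO mice, the filter on low counts kept 6 of the 9 members and left out *Sox17*, *Sox18* and *Edn1*. None of the 6 was called, beside 11.7% of 16337 genes tested (19.2% with any size of change). At an unadjusted p below 0.05 there was 1 of 6, *Klf6*, beside 33.1% of all genes tested. DESeq2 called 0 members as DEGs, beside 2486 of 23571 genes. *Klf6* was at 194.1, 144.4 and 115.6 CPM in control macrophages and at 230.7, 220.5 and 224.2 CPM in HSC-KO macrophages. All 3 HSC-KO libraries lay above the controls, beside groups without overlap in 40.3% of all genes tested. The log2 fold change was 0.57 (SE 0.19, edgeR adjusted p = 0.0700). It passed the test under DESeq2 (adjusted p = 0.0216), with *Xist* as a covariate (0.0482), with at least 10 counts required in every library (0.0496) and without control replicate 1 (0.0161).

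*Klf2* was at 143.3, 103.9 and 65.7 CPM in control macrophages and at 55.8, 85.0 and 70.3 CPM in HSC-KO macrophages (log2 fold change -0.57, edgeR adjusted p = 0.207). *Klf4* was at 32.2, 26.2 and 14.8 CPM and at 41.4, 9.64 and 47.2 CPM (0.42, adjusted p = 0.638). For both genes the groups overlapped. *Piezo1* was at 18.8 to 25.4 CPM and 14.0 to 23.7 CPM (-0.09, adjusted p = 0.835). The immediate-early list summed to 1303 to 2296 CPM in control and 1130 to 1522 CPM in HSC-KO macrophages.

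The endothelial members were near or at 0 in these macrophages. *Sox7* had 0, 100 and 70 counts in control libraries and 0, 6 and 22 in HSC-KO libraries, *Sox17* 15, 9 and 4 against 0, 0 and 0, and *Sox18* 0, 15 and 16 against 0, 0 and 0. *Nos3* had 4, 121 and 19 counts against 10, 15 and 53, and *Edn1* 8, 0 and 28 against 0, 35 and 0. Beside these values, the 12 pan-endothelial markers summed to 351 to 573.6 CPM in controls and 58.7 to 128.7 CPM in HSC-KO macrophages, with *Tek* at 0 in 1 library. *Cdh5*, which Kupffer cells also express, was at a mean of 245.1 against 1.45 CPM, *Kdr* at 21.6 against 4.14 CPM and *Eng* at 38.8 against 58.2 CPM. Of the 12 markers, 11 had negative estimates and 3 were lower at an adjusted p below 0.05, beside 19.2% of all genes tested with any change. These 3 were *Cdh5*, *Erg* (log2 fold change -4.93) and *Pecam1* (-1.82), and only the estimate of *Eng* was positive. Without *Cdh5*, a sum computed after these values were seen, the other 11 markers were at 68.5, 317.4 and 219.6 CPM in controls and at 77.0, 57.9 and 126 CPM in HSC-KO macrophages, so that the groups overlapped. Control replicate 1, the lowest control in this sum, had 0 counts of *Sox7* and *Sox18* but 15 of *Sox17*, more than the other controls. The part of endothelial RNA in the SoxF and *Nos3* values was not tested.

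In the *Smad4* experiment, all 9 members passed the filter and none was called, beside 5.43% of 17517 genes tested (7.74% with any size of change). At an unadjusted p below 0.05 there was 1 of 9, *Edn1*, beside 21.4% of all genes tested. DESeq2 called 0 members as DEGs, beside 1326 of 27121 genes. The groups did not overlap for *Edn1* alone, beside 29.4% of all genes tested. *Edn1* had 28, 12 and 40 counts in controls and 49, 124 and 47 in *Smad4* fl/fl *Vav1*Cre macrophages (log2 fold change 1.39, SE 0.54, edgeR adjusted p = 0.190). *Klf2* was at 72.8, 43.6 and 56.0 CPM and at 70.4, 43.2 and 76.6 CPM, *Klf4* at 24.2, 15.6 and 15.2 CPM and at 14.3, 18.2 and 36.5 CPM, and *Klf6* at 173.9, 235.4 and 183.3 CPM and at 220.9, 160.8 and 270.0 CPM. Their adjusted p values were 0.685 to 0.813, and *Piezo1*, at 23.8 to 28.4 and 25.4 to 31.1 CPM, had an adjusted p of 0.709.

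The SoxF genes and *Nos3* had higher CPM in this experiment than in the macrophages of the *Gdf2/Bmp10* mice, although the tables were normalized separately. *Sox7* was at 3.61, 1.37 and 4.16 CPM in controls and at 5.28, 5.69 and 3.97 CPM in *Smad4* fl/fl *Vav1*Cre mice, *Sox17* at 1.03, 0.255 and 0.921 and at 1.19, 1.58 and 0.752 CPM, *Sox18* at 1.36, 0.498 and 1.72 and at 1.89, 1.59 and 1.09 CPM, and *Nos3* at 6.20, 1.66 and 5.13 and at 6.64, 6.95 and 5.78 CPM. For all 4 genes control replicate 2 was the lowest library. The summed pan-endothelial markers were 2276, 743.9 and 2131 CPM in controls and 2075, 1999 and 1616 CPM in mutants, again lowest in control replicate 2. Without control replicate 2 the *Sox18* estimate turned from 0.35 to -0.03.

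Whether the change in ECs differed from that in the other samples was tested as an interaction over 12 libraries. For ECs against macrophages of *Gdf2/Bmp10* HSC-KO mice, 6 members had passed the filter in both tables. None of these 6 had a fold change that differed by edgeR, beside 12.3% of 18213 genes tested, and 1 had an unadjusted p below 0.05, beside 29.7%. *Sox7* was called with the replicate block (2.56, adjusted p = 0.0191) and without macrophage control replicate 1 (3.03, adjusted p = 0.0238). *Sox17*, *Sox18* and *Edn1* had failed the filter in macrophages and entered this fit only through the ECs, so that no difference was read from their values. Of these, *Sox17* had a fitted log2 difference of 6.20 (SE 0.95, edgeR adjusted p = 0.00260) against 0 counts in all HSC-KO macrophages, and of 4.13 (adjusted p = 0.0619) with mouse as a random block, which takes in the 3 shared mice. *Piezo1* had a log2 difference of 0.71 (95% interval 0.06 to 1.36, adjusted p = 0.133), *Klf6* of 0.34 (-0.64 to 1.32), *Klf4* of 0.53 (-1.30 to 2.35) and *Klf2* of 0.42 (-0.65 to 1.48).

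For ECs against whole liver, none of the 9 members had a fold change that differed, beside 6.53% of 18875 genes tested. At an unadjusted p below 0.05 there was 1 of 9, *Edn1*, beside 21.3% of all genes tested. DESeq2 called 1 member, beside 2003 of 26925 genes. *Edn1* had a log2 difference of 2.77 (SE 0.83; 95% interval 0.94 to 4.601, edgeR adjusted p = 0.0694), with 1 HSC-KO liver at 0 counts. *Sox18*, called in whole liver and not in ECs, had a log2 difference of -0.90 (95% interval -2.00 to 0.21, adjusted p = 0.341), and *Sox7*, lower in ECs, had -0.59 (-1.25 to 0.08, adjusted p = 0.295). *Piezo1* differed by 0.17 (-0.29 to 0.63, adjusted p = 0.728), its estimates being 0.63 in ECs and 0.50 in whole liver. These comparisons did not show that the responses of ECs and whole liver differed or that they were alike.

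For macrophages of the 2 mouse lines, none of the 6 members that passed the filter in both tables had a fold change that differed by edgeR, beside 2.61% of 18149 genes tested. At an unadjusted p below 0.05 there was 1 of 6, *Sox7*, beside 16.3% of all genes tested. DESeq2 called 0 of the 6, beside 1109 of 27809 genes. *Sox17* entered this fit only through the 23 to 183 counts of the *Smad4* experiment. Its fitted log2 difference of -7.11 (SE 1.33, edgeR adjusted p = 0.0232) was not read as a difference, and the call was lost with the replicate block (adjusted p = 0.118), under glmTreat (0.0644) and without HSC-KO replicate 2 (0.0504), *Smad4* control replicate 3 (0.0546) or *Smad4*-deleted replicate 1 (0.0530). *Klf2* differed by -0.67 (95% interval -1.59 to 0.25, adjusted p = 0.481) and *Klf6* by 0.48 (-0.18 to 1.146, adjusted p = 0.480).

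Levels of different genes were compared as CPM per kilobase of merged exons. In control ECs, *Klf2* led with 160 (range 112.7 to 235.9), above *Klf4* with 45.1 (26.4 to 77.0). *Sox7* at 26.8, *Nos3* at 22.9, *Klf6* at 22.1, *Sox18* at 13.9 and *Piezo1* at 8.72 followed, and each of *Klf4* to *Sox18* overlapped its next neighbour in this order. *Edn1* at 5.87 lay below *Piezo1* without overlap, and *Sox17* at 2.64 below *Edn1*. In HSC-KO ECs the order was *Klf2* (144.2), *Klf4* (87.1), *Klf6* (41.7), *Sox7* (19.0), *Nos3* (18.0), *Sox18* (15.4), *Piezo1* (13.5), *Edn1* (6.93) and *Sox17* (2.32), with the ranges of *Klf2* and *Klf4* now overlapping. In control macrophages of the *Gdf2/Bmp10* mice, *Klf2* (56.5), *Klf6* (34.5), *Klf4* (8.004) and *Piezo1* (2.18) led, and the other 5 members were at or below 0.243.

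Across sample types the members fell into different patterns relative to control ECs, with the caution that the tables were normalized separately. In control livers, the summed pan-endothelial markers were at 2.49 to 3.01% of their control EC level. *Sox7* was in the same range, at 2.27 to 3.77%, and *Klf4* at 1.61 to 3.28%. *Sox17* was at 26.1 to 30.6% and *Sox18* at 33.4 to 37.5% of their control EC levels, far above the percentage of the markers. Between them lay *Edn1* at 3.39 to 5.30%, *Klf2* at 4.96 to 5.74%, *Nos3* at 5.83 to 9.54%, *Klf6* at 11.6 to 11.97% and *Piezo1* at 13.3 to 15.04%. Which liver cells carried the *Sox17* and *Sox18* counts was not tested.

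In the macrophages of control *Gdf2/Bmp10* mice, *Klf6* was at 119.2 to 200.2%, *Klf2* at 22.3 to 48.6%, *Piezo1* at 21.7 to 29.3% and *Klf4* at 10.8 to 23.5% of the control EC mean. The SoxF genes were at 0 to 1.41% and the markers at 1.94 to 3.17%, or at 0.392 to 1.81% without *Cdh5*. In the *Smad4* experiment the SoxF genes were at 1.55 to 12.5% and the markers at 4.11 to 12.6%, or at 3.30 to 11.8% without *Cdh5*.

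**Figure D5:**
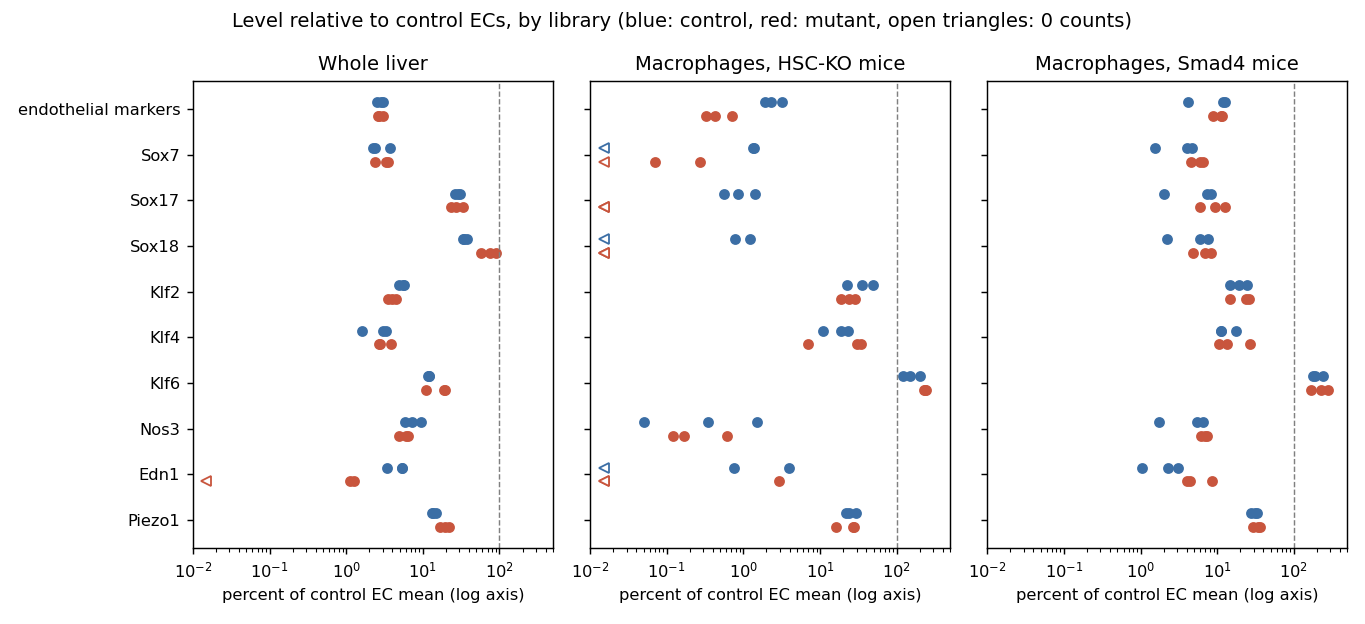
Level of each gene, and of the summed pan-endothelial markers, as a percentage of the mean of control ECs (logarithmic axis; dashed line, 100%) in whole-liver and macrophage libraries (blue, control; red, mutant; open triangles at the left edge, 0 counts). The marker sum includes *Cdh5*. *Sox17* and *Sox18* in whole liver lie right of the markers, and *Klf6* in macrophages lies above 100%.

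Genes with the pattern most like each member over the 24 libraries were found by the root mean square difference of centred log2 CPM, among 10998 or 10999 candidates; the libraries share tables and mice, so this is a description. For *Sox7* they were *Kdr* (0.45), *Akap2* (0.63) and *Robo4* (0.64). For *Sox18* they were *Hspg2* (0.57), *Tjp1* (0.74) and *Ephb4* (0.78), and for *Sox17*, less closely, *Stap2* (0.81), *Bcar1* (0.82) and *Epas1* (0.84). *Nos3* was nearest to *Thsd1* (0.53), *Cdc42ep1* (0.56) and *Caskin2* (0.58). *Klf2* was nearest to *Rilpl1* (0.42), *Btbd10* (0.43) and *Gnl3l* (0.46), *Klf4* to *Prkch* (0.69), *Cfap43* (0.71) and *Tcf4* (0.71), and *Klf6* to *Cd81* (0.41), *Tpm3* (0.42) and *Gm15427* (0.44). *Piezo1* was nearest to *Arhgef7* (0.32), *Dph6* (0.33) and *Mxd4* (0.33). No candidate came close to *Edn1*, whose nearest was *St6galnac3* (1.42).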

How the data were processed

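Per the labels and the study's methods, RNA was extracted from sorted cells or whole livers, and reads were processed with FastQC, aligned with HISAT2 to mm10 (GRCm38) and counted with featureCounts. The labels and the methods name different library kits. Tool versions, annotation release, strand use and the handling of multi-mapping reads are not given in the sources used here. The authors deposited raw counts per gene, without normalization, in 4 tables of 48820 entries, and 483 entries that share symbols were left out of the fits over 12 libraries.

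In R 4.3.3, genes were kept by filterByExpr (at least 10 counts, 15 in total) in each table, TMM factors were computed and groups were compared with the quasi-likelihood test of edgeR 4.0.16 (limma 3.58.1), over its 6 libraries without covariate and with Benjamini-Hochberg adjustment over all genes tested. Interactions were fitted over 12 libraries. The SE was the log2 fold change divided by the square root of F. Alternatives were DESeq2 1.42.0, other scalings and filters, glmTreat, the replicate block, *Xist* as a covariate, mouse as a random block (limma voom), and each library left out. The fits were tested on simulated data. Python 3.11.15, pandas 2.3.3 and matplotlib 3.10.9 were used for annotation (GENCODE vM21) and plots.

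Named were all members, at most 3 genes per pathway list by EC p value, the deleted genes, the 3 nearest genes per member whose log2 CPM averaged 1 or more (prior count 2), and marker lists as sums. The genes of MEKK3, MEK5 and ERK5 and some single markers were named after their values were seen. The members and lists were chosen with earlier results of these data known. The methods speak of 3 biological replicates. Same-numbered libraries were not treated as pairs. Depth was 60911527 to 110879155 counts per library. A count of 0 allows up to 3 counts in a library, which covers counting error only.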

Additional observations from a re-analysis of the deposited data

Results flagged for a closer look

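The interaction fits gave 2 calls for *Sox17*, which are listed for a closer look and were not read as differences. The fitted log2 difference was 6.20 (edgeR adjusted p = 0.00260) for ECs against macrophages in the HSC-KO experiment, and -7.11 (adjusted p = 0.0232) for these macrophages against those of the *Smad4* experiment. *Sox17* had failed the filter on low counts in the *Gdf2/Bmp10* macrophages, with 15, 9 and 4 counts in controls and 0 in all 3 HSC-KO libraries, and entered the fits only through the other libraries. The first call was lost with mouse as a random block (4.13, adjusted p = 0.0619). The second was lost with the replicate block (adjusted p = 0.118), under glmTreat (0.0644) and without HSC-KO replicate 2 (0.0504), *Smad4* control replicate 3 (0.0546) or *Smad4*-deleted replicate 1 (0.0530). In the same libraries, 11 pan-endothelial markers without *Cdh5* summed to 68.5 to 317.4 CPM in controls and 57.9 to 126 CPM in HSC-KO macrophages. Among these markers *Erg* (-4.93) and *Pecam1* (-1.82) were lower at an adjusted p below 0.05, and only the estimate of *Eng* was positive. The part of these markers was not tested.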

How the results depend on the processing

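Of 945 values for 60 single-gene results under the alternatives, 855 kept their direction and their side of the threshold, 26 lost the call, 20 gained one and 44 changed sign. The cause was not tested for any of them. In ECs, members higher at an adjusted p below 0.05 numbered 1, and 2 under DESeq2, library size alone and *Xist* as a covariate. Members lower numbered 1, and 0 under library size alone and with all genes of at least 1 count. DEGs among the members numbered 0, and 1 (*Klf6*) under library size alone and with *Xist*. Leaving out each library gave 0 to 1 for each of these 3 counts. In whole liver the 1 DEG became 0 under library size alone, glmTreat, *Xist* and the replicate block, and 0 to 1 with each library left out. For ECs against macrophages the count of 1 (*Sox17*, which passed the filter only through the ECs) became 2 under DESeq2 and the replicate block, 0 with mouse as a random block, and 1 to 3 with each library left out. For ECs against whole liver the count of 0 became 1 under DESeq2 and library size alone (*Edn1*), and 0 to 1 with each library left out. For HSC-KO macrophages against those of the *Smad4* experiment, the count of 1 was *Sox17*, which passed the filter only through the *Smad4* experiment. This count became 2 under DESeq2, 0 under glmTreat and the replicate block, and 0 to 2 with each library left out.

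Signs changed under library size alone for *Sox17* (0.099) and *Klf2* (0.15) in ECs and for *Sox17* between ECs and whole liver (0.25). This scaling moved the median of all genes by 0.29 in ECs, -0.11 in whole liver and 0.16 in the *Smad4* experiment. Relative to that shift, *Sox7* was at -0.50, *Sox17* at -0.19, *Klf2* at -0.14 and *Klf6* at 0.92 in ECs. The *Klf6* value was thus below the DEG threshold, as in the main fit. With *Xist*, signs changed for *Sox18* (-0.12) and *Klf2* (0.10) in ECs and *Sox17* (0.084) in whole liver, and with mouse as a random block for *Nos3* between ECs and macrophages (-0.017). Leaving out each library gave ranges that crossed 0 in ECs for *Sox17* (-0.34 to 0.0041), *Sox18* (-0.19 to 0.52), *Klf2* (-0.36 to 0.25) and *Edn1* (-0.078 to 0.46), and in whole liver for *Sox17* (-0.20 to 0.082) and *Klf4* (-0.012 to 0.43). In HSC-KO macrophages they crossed 0 for *Nos3* (-2.14 to 0.60) and *Piezo1* (-0.21 to 0.12), and in the *Smad4* experiment for *Sox18* (-0.030 to 0.69), *Klf2* (-0.036 to 0.35), *Klf4* (-0.18 to 0.57) and *Klf6* (-0.050 to 0.31). For differences between ECs and macrophages they did for *Nos3* (-1.07 to 1.80) and *Edn1* (-1.13 to 7.17), between ECs and whole liver for *Sox17* (-0.28 to 0.070), *Nos3* (-0.13 to 0.27) and *Piezo1* (-0.0072 to 0.27), and between both macrophage experiments for *Klf4* (-0.22 to 0.65), *Nos3* (-2.68 to 0.058) and *Piezo1* (-0.31 to 0.059).

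Over all genes, DEGs in whole liver numbered 425, and 814 under DESeq2, 271 with the replicate block and 142 under glmTreat. Under glmTreat they numbered 1096 in ECs, against 2198, 906 in HSC-KO macrophages, against 1904, and 315 in the *Smad4* experiment, against 951. They numbered 188 in whole liver without control replicate 2 and 566 in the *Smad4* experiment without control replicate 3. Genes whose fold change differed numbered 980 under glmTreat between ECs and macrophages, against 2244, and 481 under glmTreat and 2003 under DESeq2 between ECs and whole liver, against 1232. Between both macrophage experiments they numbered 1109 under DESeq2, 105 under glmTreat, 299 with the replicate block and 233 without *Smad4* control replicate 3, against 473. Same-numbered libraries, each taken as deviations from its group mean, correlated at -0.11 to 0.16. With 3 libraries per group, such low values cannot show that the samples were unpaired. With the replicate block, *Sox7* in ECs was at -0.50 (edgeR adjusted p = 0.0300) and *Piezo1* at 0.62 (adjusted p = 0.0440). *Xist* as a covariate was not run in the *Smad4* experiment, where its counts were 0 to 3. With 3 libraries per group, counts of a few reads, such as those of *Sox17*, *Sox18* and *Edn1* in macrophages, limit any fold change.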
